A study of Mus musculus with 18 samples.

Results

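The 10 imprinted growth genes Peg10, Igf2, H19, Dlk1, Meg3, Cdkn1c, Peg3, Plagl1, Grb10 and Mest were taken by symbol from the 23420 genes of 3 RNA-Seq tables of mouse embryonic lung. The set was selected on measured values, since it was proposed after Peg10 had been seen to be higher in the Vangl1/2 mutant lungs. The members' values in that contrast are therefore a description, with no test. The Vangl1/2 contrast set 3 libraries of Vangl1-/-; Vangl2-/- lungs (stage E12.5dpc) against 3 libraries of Vangl1-/- lungs of that stage, so that both groups lacked Vangl1. The Dermo1-Cre contrast set 3 libraries of the genotype Wnt5af/f; Dermo1Cre against 3 of Wnt5af/+; Dermo1Cre, both at E12.5dpc. The Sox9-Cre contrast set 3 libraries of the genotype Wnt5af/f; Sox9Cre against 3 of Wnt5af/+; Sox9Cre, both at E13.5dpc. All lungs of the Wnt5a experiments thus carried the Cre, and their controls carried a floxed allele. Dermo1-Cre acts in the lung mesenchyme, and Sox9-Cre acts in the epithelium after branching has begun. The Vangl1 allele is a gene trap, and the Vangl2 null allele was derived from a floxed allele with Sox2-Cre, so its loss was not limited to the lung. Whole lungs were sequenced in bulk, so fewer cells of a type and less RNA per cell cannot be told apart. How many embryos made up a library is not given in the sources used here, and the p-values measure only the spread between these libraries, which may be technical.

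Imprinted genes are transcribed mainly from one parental copy, which is set by DNA methylation laid down in the egg or the sperm at control regions that often serve several neighboring genes. Many of them act on prenatal growth. Igf2 is a fetal growth factor and Plagl1 and Peg3 are zinc finger proteins, while Cdkn1c blocks the cell cycle and Grb10 binds and dampens the insulin and IGF receptors. Peg10 derives from a retrotransposon of the Ty3/Gypsy type and is required in the placenta. Dlk1 is a transmembrane relative of the Notch ligands, Mest is a predicted hydrolase of the endoplasmic reticulum, and H19 and Meg3 are long noncoding RNAs. Peg10, Igf2, Dlk1, Peg3, Plagl1 and Mest are known to be expressed from the paternal copy, and H19, Meg3, Cdkn1c and Grb10 mainly from the maternal copy. The tables do not separate the parental copies, so each value is the sum of both.

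In GENCODE release M21 (GRCm38), 8 of the 10 members are protein coding and 2 are noncoding. Igf2 (chr7:142650766-142666816, minus strand) and H19 (chr7:142575529-142578143, minus strand) lay 72.6 kb apart, and Cdkn1c (chr7:143458339-143461050, minus strand) lay 792 kb from Igf2. Peg3 (chr7:6703892-6730431, minus strand) lay far from them on the same chromosome. Dlk1 (chr12:109452823-109463336, plus strand) and Meg3 (chr12:109541001-109571726, plus strand) were 77.7 kb apart. Peg10 (chr6:4747306-4760517, plus strand) started 98 bases from Sgce, which runs the other way and encodes epsilon-sarcoglycan, another gene of the paternal copy. Mest (chr6:30723547-30748465, plus strand), Plagl1 (chr10:13060504-13131694, plus strand) and Grb10 (chr11:11930508-12038683, minus strand) lay apart from the other members. Mest shared 912 exon bases, 23.1% of its exons, with Copg2 on the other strand. Whether reads were counted by strand is not stated, so reads in that stretch cannot be assigned to 1 of them. Copg2 had between 677 and 1014 normalized counts, and Mest at least 27494. Igf2 shared 3596 exon bases with Gm49394, a gene of the same strand that was not among the genes of these tables.

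Values are normalized counts: reads per gene, scaled by the authors with 1 size factor per library. The reads behind them could be recovered in all 18 libraries, which held between 15945393 and 19814346 reads on genes. The size factors were set within each table, and each mutant group was compared with the controls of its own table. Vangl2 had between 277 and 406 normalized counts in the Vangl1/2 controls and between 79.8 and 89.6 in the mutants. Vangl1, which both groups lack by genotype, had 162, 219 and 114 in the controls and 239, 274 and 242 in the mutants. Wnt5a overlapped between mutants and controls in both Wnt5a experiments, with 230 to 436 against 430 to 489 for Dermo1-Cre and 362 to 448 against 426 to 473 for Sox9-Cre. Only mutant replicate 2 (436) reached the controls for Dermo1-Cre, while mutant replicates 1 and 3 had 317 and 230. The log2 fold change of Wnt5a there was −0.55. Nkx2-1, the transcription factor that marks lung epithelium, had between 2100 and 2884 normalized counts in all libraries. Tbx4, a factor of lung mesenchyme, had between 2967 and 4292. Control replicates 1 and 3 of the Vangl1/2 experiment stood apart from its other 4 libraries, with first principal component scores of −30.1 and −44.7 against scores of 15.1 to 21.5. In those 2 libraries a gene's deviation from its mean fell with its exon length (Spearman −0.57 and −0.50 across 13437 genes), and in the other 4 it rose (0.30 to 0.51). For the members, the Vangl1/2 log2 fold changes below are therefore also given with the length trend of every library removed, and for several of them against control replicate 2 alone.

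The members were abundant in the embryonic lung. Together they took between 1.22% and 1.57% of the reads on genes in a library. H19 had the second highest normalized count of all genes in each of the 18 libraries. Per kilobase of exon, the Dermo1-Cre controls had 28806 ± 2846 normalized counts for H19 (SD, n = 3), 8104 ± 845 for Igf2 and 7479 ± 426 for Mest. Igf2 and Mest did not differ beyond their spread. Cdkn1c followed with 4801 ± 495 and Grb10 with 3710 ± 97.4. Dlk1 (1840 ± 29.2) and Plagl1 (1826 ± 80.6) were alike within their spread, as were Peg3 (595 ± 49.7) and Peg10 (553 ± 30.9), and Meg3 was lowest with 285 ± 22.9. Exons of all annotated transcripts were joined for the length, which was 18.1 kb for Meg3, so that its value per kilobase is low if only short transcripts were made. In the Sox9-Cre controls the means per kilobase fell in the order H19, Igf2, Mest, Cdkn1c, Grb10, Plagl1, Dlk1, Peg3, Peg10 and Meg3. It differed from the Dermo1-Cre controls only in Plagl1 (2072 ± 25.5) and Dlk1 (2044 ± 170), whose spreads overlapped.

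**Figure D1:**
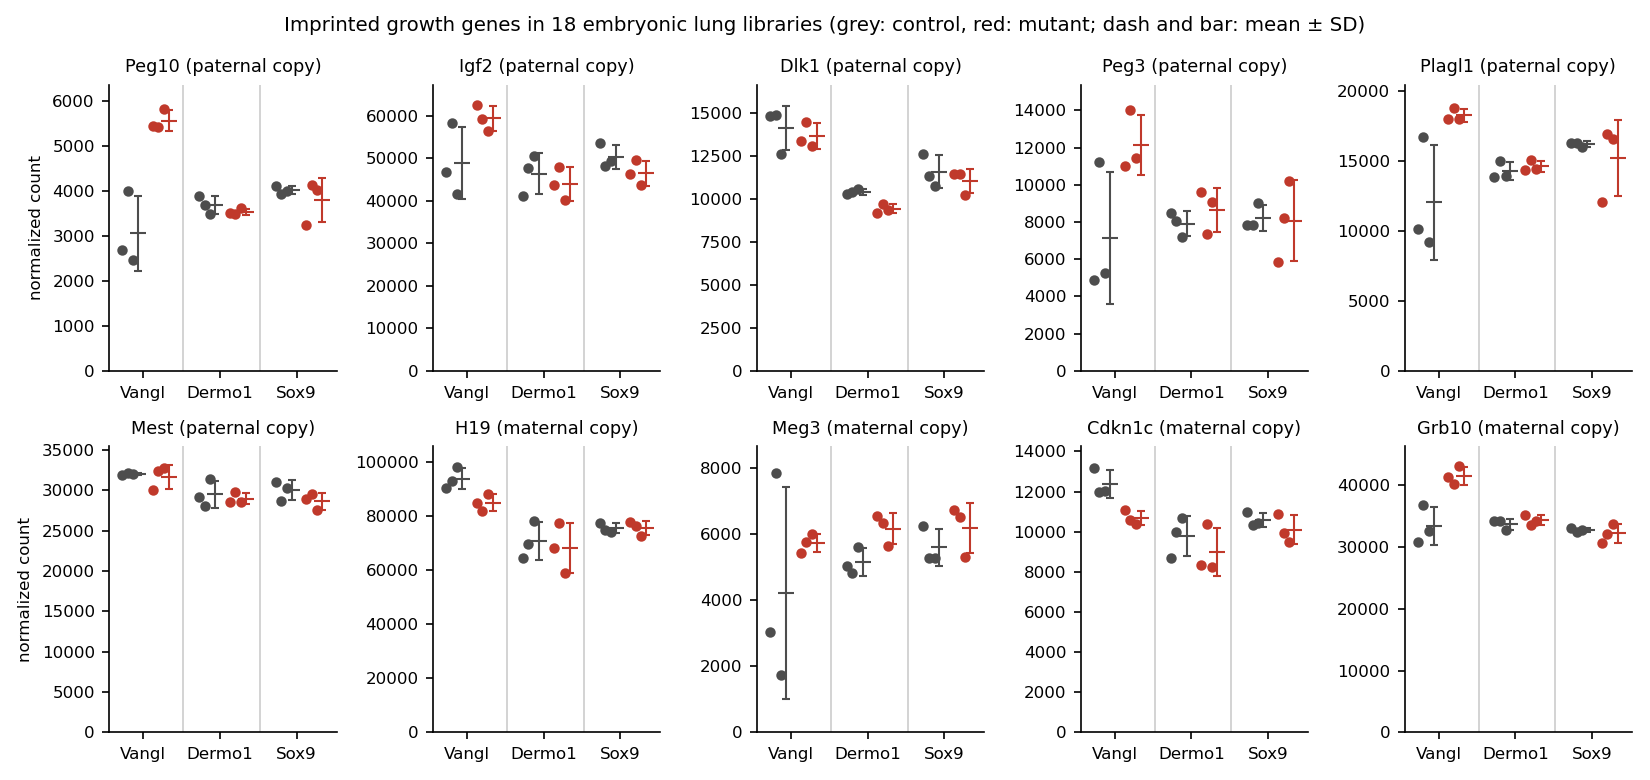
Normalized counts of the 10 imprinted growth genes in each of the 18 libraries, by experiment (x axis). Points are libraries (grey, control and red, mutant), and the dash and bar give the mean ± SD of 3 libraries. Scales start at 0, and experiments were normalized separately. Peg10 in the Vangl1/2 mutants (5420 to 5827) stood above the controls of that experiment (2465 to 4010), and control replicates 1 and 3 were the lowest libraries of that experiment for Peg10, Peg3 and Plagl1.

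Peg10 had the largest log2 fold change of the members in the Vangl1/2 lungs, by a margin over Peg3 (0.87) smaller than the standard error of either. Peg3 was above Peg10 without mutant replicate 1 or 3, and both Peg3 and Meg3 were above it without control replicate 2. Peg10 had 2696, 4010 and 2465 normalized counts in the controls and 5452, 5420 and 5827 in the mutants. Each mutant library was above each control library, and control replicate 2 lay between the other controls and the mutants. The log2 fold change was 0.90 (SE 0.17), a ratio of group means of 1.82. With the length trend removed it was 0.76 (SE 0.13), and against control replicate 2 alone it was 0.47. Leaving out 1 library at a time gave values from 0.76 to 1.11, the highest without control replicate 2. As a share of reads on genes, which does not depend on the size factors, Peg10 took 0.0283% to 0.0310% in the 3 Vangl1/2 mutants and 0.0122% to 0.0255% in the other 15 libraries. None of those 15 libraries reached the mutants, although libraries of different experiments are set side by side here and were not tested against each other. The set was chosen on Peg10 in these mutants, so the shares are a description and no separate support. They also keep the length trend, which was positive in the 3 mutants (Spearman 0.37 to 0.51).

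Sgce did not share the direction of Peg10. It had 824, 811 and 819 normalized counts in the Vangl1/2 controls and 759, 788 and 719 in the mutants. The mutants were all slightly lower, with a log2 fold change of −0.12 (SE 0.09). The exons of Sgce (10.6 kb) are longer than those of Peg10 (6.67 kb), and with the length trend removed the log2 fold change of Sgce was −0.41. Peg10 had 3.27, 4.95 and 3.01 times the normalized count of Sgce in the controls and 7.19, 6.88 and 8.11 times in the mutants. In the Dermo1-Cre lungs this ratio was 4.73 to 5.73 in controls and 4.74 to 5.62 in mutants. Of 10 genes related to Peg10 by their origin from the same kind of retrotransposon, only Rtl1 was above the filter on low values. Rtl1, a gene of the paternal copy in the Dlk1 region that is required in the placenta, had 48.3 to 113 normalized counts in the Vangl1/2 controls and 91.6 to 96.6 in the mutants, which lay within the range of the controls. The log2 fold change of Rtl1 was 0.44 (SE 0.29), 0.31 with the length trend removed and −0.27 against control replicate 2 alone.

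Plagl1 and Peg3, the zinc finger genes, were also higher in the Vangl1/2 mutants, but their controls were widely spread. Plagl1 had 10126, 16739 and 9247 normalized counts in the controls and 17972, 18769 and 18038 in the mutants, with a log2 fold change of 0.65 (SE 0.21). The groups did not overlap, and control replicate 2 was 1.81 times as high as control replicate 3. Peg3 had 4903, 11225 and 5263 in the controls and 11001, 14002 and 11456 in the mutants, with a log2 fold change of 0.87 (SE 0.29). Here control replicate 2 was above the lowest mutant. With the length trend removed the log2 fold changes were 0.46 for Plagl1 and 0.50 for Peg3, and against control replicate 2 alone 0.13 and 0.11. The 250 bases before the RefSeq start of each gene are shown because these genes were low together in control replicates 1 and 3. This was not particular to them, since Peg10, Igf2, Grb10 and Meg3 were also lowest there. Over all genes the deviations in those libraries fell with exon length (Spearman −0.57 and −0.50), and no link to the sequences was tested. Capitals mark the motif TGCCGC or its reverse complement GCGGCA, which the imprint-keeping factor ZFP57 binds when methylated. Their positions are chr10:13090582-13090831 on the plus strand for Plagl1, inside the annotated gene, and chr7:6730420-6730669 on the minus strand for Peg3 (GRCm38.p6).
Plagl1: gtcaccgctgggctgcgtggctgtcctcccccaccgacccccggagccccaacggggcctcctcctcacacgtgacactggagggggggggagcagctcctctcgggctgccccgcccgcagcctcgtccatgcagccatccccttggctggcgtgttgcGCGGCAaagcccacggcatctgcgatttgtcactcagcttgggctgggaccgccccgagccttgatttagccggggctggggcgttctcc
Peg3: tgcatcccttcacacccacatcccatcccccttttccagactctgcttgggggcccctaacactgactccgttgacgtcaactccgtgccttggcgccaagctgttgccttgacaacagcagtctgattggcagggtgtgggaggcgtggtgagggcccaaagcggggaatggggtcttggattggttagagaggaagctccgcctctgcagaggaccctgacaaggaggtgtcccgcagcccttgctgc

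The Plagl1 window held the motif and the Peg3 window did not. The motif was found on either strand in 8.68% of 32851 such windows of 250 bases over all genes, and in 4 of the 14 windows of the 7 members listed, which belonged to Mest, Plagl1 and Meg3. Of these 4 windows, 2 are Mest windows shifted by 3 bases and so nearly the same sequence. The Plagl1 window had 19 CG dinucleotides and the Peg3 window 8, against a median of 6 over all windows. A match of letters is not a measured binding site.

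Grb10, Igf2 and Meg3 had log2 fold changes above 0 in the Vangl1/2 mutants. Grb10 had 30888, 36804 and 32604 normalized counts in the controls and 41425, 40156 and 43111 in the mutants. The groups did not overlap. The log2 fold change of 0.32 (SE 0.12) was 0.08 with the length trend removed and 0.17 against control replicate 2 alone. Igf2 had 46837, 58201 and 41530 in the controls and 62403, 59241 and 56451 in the mutants, with a log2 fold change of 0.29 (SE 0.15). Control replicate 2 lay within the range of the mutants, and the log2 fold change was 0.20 with the length trend removed and 0.03 against control replicate 2 alone. H19 had 1.60 to 2.36 times the normalized count of Igf2 in the controls and 1.36 to 1.56 times in the mutants, and the highest ratios belonged to control replicates 1 and 3. Meg3 varied most among the controls, with 3055, 7846 and 1752 normalized counts, while the mutants had 5433, 5780 and 6000. Its log2 fold change of 0.72 (SE 0.45) was 0.26 with the length trend removed, 1.31 without control replicate 2, 0.23 without control replicate 3 and −0.45 against control replicate 2 alone, so that its direction rested on control replicates 1 and 3.

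Cdkn1c, H19, Dlk1 and Mest had log2 fold changes below 0. Cdkn1c had 13190, 11975 and 12011 normalized counts in the Vangl1/2 controls and 11094, 10586 and 10370 in the mutants, and H19 had 90597, 93047 and 98028 against 84917, 82058 and 88219. Both were lower in every mutant library, by 0.21 (SE 0.09) and 0.14 (SE 0.12) on the log2 scale, and both are among the shortest members, with 2.04 kb and 2.46 kb of exons. With the length trend removed their log2 fold changes were −0.01 and 0.01, and against control replicate 2 alone −0.17 and −0.13. Dlk1 had 14816, 14867 and 12619 in the controls and 13348, 14487 and 13092 in the mutants. Mest had 31903, 32130 and 31945 in the controls and 29980, 32333 and 32750 in the mutants. The groups overlapped for both, with log2 fold changes of −0.04 (SE 0.11) and −0.01 (SE 0.10), or −0.13 and 0.01 with the length trend removed.

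**Figure D2:**
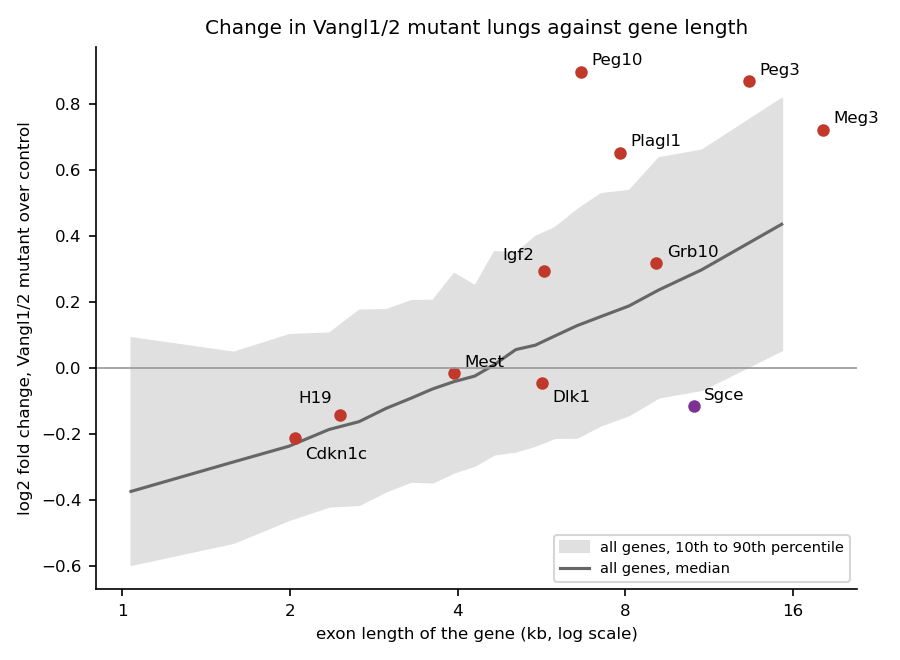
Log2 fold change between Vangl1/2 mutants and controls (y axis) against the exon length of a gene in kb (x axis, log scale), with no error bars. Red points are the 10 members and the purple point is Sgce. The line and band give the median and the 10th to 90th percentile of all tested genes in 20 classes of length. Peg10, Peg3 and Plagl1 lie above the band, Cdkn1c, H19 and Mest lie close to the median, and Sgce lies below the band.

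Over the 10 members the median log2 fold change was 0.31 in the Vangl1/2 lungs, and 0.14 with the length trend removed, against −0.01 and −0.02 over all 14303 tested genes. The groups did not overlap for 3 members that were higher (Peg10, Plagl1 and Grb10), where 13.6% of all tested genes were higher without overlap, and for 2 that were lower (Cdkn1c and H19), where 8.68% were. These shares depended on length. Of 2437 genes with at least 8 kb of exons, 35.2% were higher without overlap, and of 1697 genes under 2 kb, 0.94% were. Since the rule used this contrast, nothing is read from the members' counts. The groups overlapped in 11 of 12 summed lists of cell type markers. Within those lists, all 6 smooth muscle markers had log2 fold changes below 0 (median −0.49, 4 at an unadjusted p under 0.05 and 2 without overlap) and all 7 neuronal markers above 0 (median 0.56, 2 at an unadjusted p under 0.05), and none passed the adjusted threshold. Their sums were 9128 to 13160 in controls and 7119 to 10171 in mutants for smooth muscle, and 437 to 750 and 649 to 1111 for neurons. Of 5 mesothelial markers tested 4 were above 0 (median 0.50), 3 of them at an unadjusted p under 0.05. The mesothelial sums were 2151 to 3424 in controls and 3229 to 5679 in mutants. Of 11 mesenchymal markers 3 were higher and 2 lower at an unadjusted p under 0.05, and none of either list passed the adjusted threshold. The list without overlap was the hepatoblast list, with 143 to 208 normalized counts in controls and 128 to 143 in mutants, sums that met at the edge of their ranges. The part of cell composition in the Vangl1/2 values was not tested.

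In the Dermo1-Cre lungs, which the rule did not use, Meg3 and Dlk1 were the members with the smallest p-values, in opposite directions. Meg3 had 5047, 4820 and 5622 normalized counts in the controls and 6546, 6331 and 5647 in the mutants. Each mutant was above each control, although mutant replicate 3 exceeded control replicate 3 by little. The log2 fold change was 0.26 (SE 0.07, unadjusted p = 0.0041 and adjusted p = 0.296 by limma). Dlk1 had 10249, 10395 and 10578 in the controls and 9177, 9687 and 9364 in the mutants. Each mutant was below each control, and the log2 fold change was −0.15 (SE 0.04, unadjusted p = 0.0040 and adjusted p = 0.292 by limma). Neither passed the threshold of 0.05 after adjustment over all 14277 genes. DESeq2 on the recovered reads gave an adjusted p of 0.0137 for Meg3 and 0.0587 for Dlk1, and edgeR gave 0.300 and 0.286. With the length trend removed the log2 fold change was 0.14 (adjusted p = 0.540 by limma) for Meg3 and −0.17 (adjusted p = 0.274) for Dlk1. Under limma no library left out brought either below 0.05, with adjusted p-values from 0.158 to 0.827 for Meg3 and from 0.190 to 0.827 for Dlk1.

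These 2 genes belong to 1 imprinted region, in which Dlk1 is expressed from the paternal and Meg3 from the maternal copy. The 250 bases before their starts are shown because the members that stood out in the Dermo1-Cre lungs are neighbors. They lie on the plus strand of GRCm38.p6 at chr12:109452573-109452822 for Dlk1 and at chr12:109540746-109540995 for Meg3, and capitals mark the motif TGCCGC or GCGGCA as above.
Dlk1: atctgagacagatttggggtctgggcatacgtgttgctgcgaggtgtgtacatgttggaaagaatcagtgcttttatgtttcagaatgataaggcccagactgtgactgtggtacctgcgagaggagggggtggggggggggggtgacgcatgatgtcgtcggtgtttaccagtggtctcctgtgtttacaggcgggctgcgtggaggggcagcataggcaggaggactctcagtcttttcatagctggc
Meg3: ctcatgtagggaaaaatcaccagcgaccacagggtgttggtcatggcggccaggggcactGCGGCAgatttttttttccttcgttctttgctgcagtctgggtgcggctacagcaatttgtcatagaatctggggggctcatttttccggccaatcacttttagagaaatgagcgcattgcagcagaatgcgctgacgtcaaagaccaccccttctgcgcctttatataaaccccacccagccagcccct

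The Meg3 window shown held the motif and the Dlk1 window did not, with 10 and 8 CG dinucleotides. A second Meg3 window in RefSeq, at chr12:109545148-109545397, held 0 motifs and 0 CG dinucleotides. The ratio of Meg3 to Dlk1 within a library was 0.492, 0.464 and 0.531 in the Dermo1-Cre controls and 0.713, 0.654 and 0.603 in the mutants. It was 0.496, 0.465 and 0.493 in the Sox9-Cre controls and 0.588, 0.570 and 0.521 in the mutants. In both Wnt5a experiments the mutants were thus above the controls, while in the Vangl1/2 lungs the controls (0.139 to 0.528) spanned the mutants (0.399 to 0.458). The ratio was chosen after its values were seen and was not tested. Rian, a noncoding RNA of the same region and the maternal copy, had 7570 to 8012 normalized counts in the Dermo1-Cre controls and 8129 to 8615 in the mutants. It had the smallest p of the other imprinted genes there (log2 fold change 0.11, SE 0.04, unadjusted p = 0.0268 and adjusted p = 0.441 by limma). In the Sox9-Cre lungs the log2 fold change of Rian was −0.0052 (SE 0.07). Mirg, another maternal noncoding RNA of the region, named here after its values were seen, went the other way in the Dermo1-Cre lungs. It had 253 to 261 normalized counts in the controls and 236 to 248 in the mutants (log2 fold change −0.08, SE 0.08, adjusted p = 0.738 by limma).

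**Figure D3:**
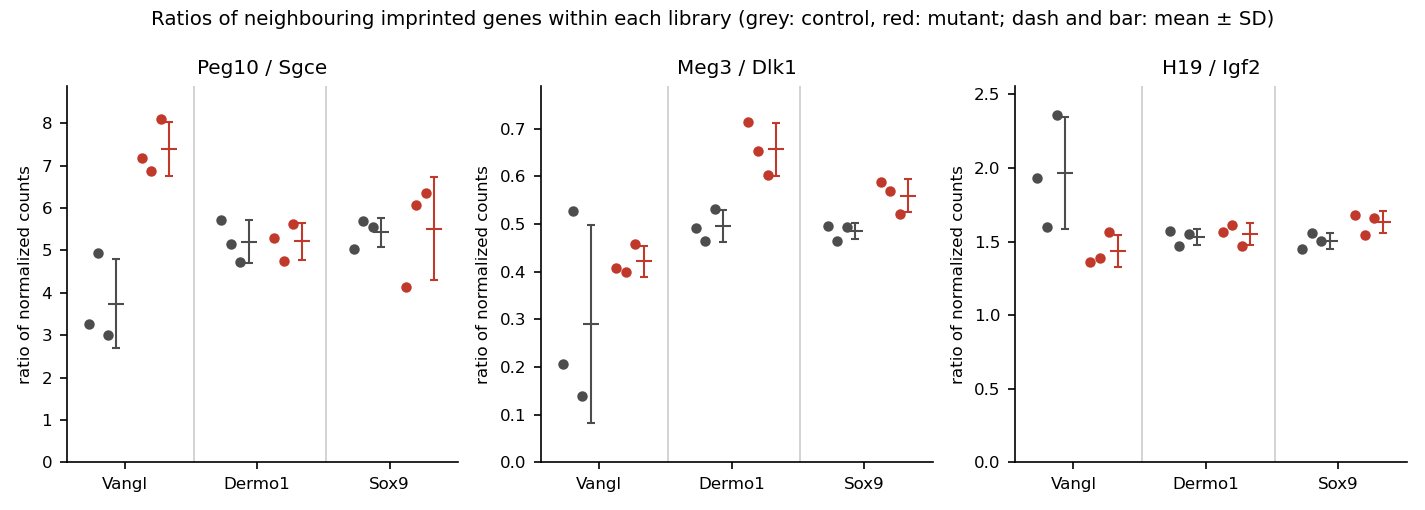
Ratios of normalized counts of neighboring imprinted genes within each library (y axis), by experiment (x axis), with points for libraries (grey, control and red, mutant) and dashes and bars for mean ± SD of 3 libraries. Peg10 over Sgce was highest in the Vangl1/2 mutants (6.88 to 8.11), Meg3 over Dlk1 was above the controls in both groups of Wnt5a mutants, and H19 over Igf2 lay between 1.45 and 1.68 in the Wnt5a experiments.

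Some marker lists also differed between the groups of the Dermo1-Cre lungs. Within the mutants the neuronal sums did not follow Meg3. In mutant replicates 1, 2 and 3 they were 940, 2155 and 2291, and Meg3 had 6546, 6331 and 5647. The 7 neuronal markers were all above the filter and all higher in each mutant than in each control, with a summed level of 401 to 739 normalized counts in controls and 940 to 2291 in mutants. The summed epithelial list was 18170 to 18624 in controls and 16739 to 17236 in mutants, and the mesenchymal list 84622 to 96220 and 77098 to 84028. The hepatoblast list was 136 to 298 and 66.5 to 130, and the groups overlapped in the remaining 8 of 12 lists. Among those 8, all 6 smooth muscle markers had log2 fold changes below 0 (median −0.59, 5 at an unadjusted p under 0.05 by limma). Their sums were 11698 to 16231 in controls and 7907 to 12673 in mutants. All 10 cardiomyocyte markers were below 0 (median −1.28), and all 4 skeletal muscle markers tested were above 0 (median 0.50). None of the markers of these lists passed the adjusted threshold. Both lists varied widely within groups. The cardiomyocyte sums were 1421, 6953 and 20997 in controls and 3060, 4405 and 941 in mutants. The skeletal muscle sums were 63.1, 75.3 and 758 in controls and 92.8, 1653 and 105 in mutants. No neuronal, epithelial or mesenchymal marker was at 0 in any of these libraries, and of the hepatoblast list Serpina1a was at 0 in the 3 mutants. In the Sox9-Cre lungs all 7 neuronal markers had log2 fold changes below 0 (median −0.94). Their sums overlapped, with 1184 to 1647 in controls and 495 to 1679 in mutants. In Sox9-Cre mutant replicates 1, 2 and 3 the sums were 1679, 495 and 551. The ratios of Meg3 to Dlk1 in those libraries were 0.588, 0.570 and 0.521. The part of these lists in the values of Meg3 and Dlk1 was not tested.

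The remaining 8 members overlapped between the groups of the Dermo1-Cre lungs. Peg10 had 3898, 3681 and 3486 normalized counts in the controls and 3516, 3483 and 3619 in the mutants. The log2 fold change of Peg10 was −0.06, with a 95% interval from −0.16 to 0.05 and adjusted p = 0.696 by limma. For Igf2 the log2 fold change was −0.08 (95% interval −0.27 to 0.12), for H19 −0.06 (−0.29 to 0.17) and for Cdkn1c −0.13 (−0.34 to 0.09). H19 and Igf2 ranked the 6 libraries in the same order, and Cdkn1c differed from it only in exchanging control replicate 1 and mutant replicate 1. H19 was lowest in mutant replicate 3 (58976) and control replicate 1 (64411) and highest in control replicate 3 (78307), and Igf2 had 40143, 41042 and 50476 in those libraries. From the lowest to the highest library for H19, the summed cardiomyocyte list had 941, 1421, 3060, 6953, 4405 and 20997. The summed skeletal muscle list had 105, 63.1, 92.8, 75.3, 1653 and 758 in that order. These lists were picked from 12 after their values were seen, and their part in the values of H19, Igf2 and Cdkn1c was not tested. The ratio of H19 to Igf2 stayed between 1.47 and 1.61 in the 6 libraries.

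Peg3 had a log2 fold change of 0.12 (95% interval −0.09 to 0.34), Plagl1 0.03 (−0.07 to 0.14), Grb10 0.03 (−0.07 to 0.13) and Mest −0.03 (−0.14 to 0.09) in the Dermo1-Cre lungs. For Peg3 and Cdkn1c the overlap came from mutant replicate 2, a library singled out after its values were seen. Its Wnt5a (436) lay within the range of the controls. Its skeletal muscle sum was 1653, against 92.8 and 105 in mutant replicates 1 and 3. The part of either in the values of Peg3 and Cdkn1c was not tested. Without mutant replicate 2 the log2 fold changes were 0.24 for Peg3 and −0.24 for Cdkn1c (adjusted p = 0.227 and 0.259 by limma). Of the 10 members, 0 passed an adjusted p of 0.05 by limma, where 0.014% of all tested genes did, and 0 passed by edgeR. DESeq2 called 1 member (Meg3), and over all genes of this experiment it called 100, where limma called 2. At an unadjusted p under 0.05, 1 member was higher and 1 was lower, against 5.42% and 4.76% of all genes. The groups did not overlap for 1 member that was higher and 1 that was lower, against 7.65% and 7.92% of all genes. The median log2 fold change was −0.04 over the members and 0.00071 over all genes.

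In the Sox9-Cre lungs all 10 members overlapped between the groups. Peg10 had 4119, 3935 and 4000 normalized counts in the controls and 3245, 4131 and 4027 in the mutants, with a log2 fold change of −0.09 (95% interval −0.29 to 0.11). Mutant replicate 1 was low, and it was also the lowest library for Plagl1, with 12090 against 15968 to 16922 in the other 5 libraries, and for Peg3, with 5835 against 7823 to 10210. Igf2, Grb10 and Meg3 were also lowest in control replicates 1 and 3 of the Vangl1/2 experiment, but here Meg3 was highest (6730) in mutant replicate 1, Grb10 was lowest (30727) and Igf2 was not the lowest. A gene's deviation from its mean fell with exon length in mutant replicate 1 (Spearman −0.36), the lowest value of the 6 libraries, whose others ranged from −0.17 to 0.34. Without it the log2 fold changes of Peg10, Plagl1 and Peg3 turned from −0.09, −0.11 and −0.06 to 0.02, 0.05 and 0.16.

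Igf2 had 53573, 48132 and 49458 normalized counts in the Sox9-Cre controls and 46236, 49566 and 43705 in the mutants, with a log2 fold change of −0.12 (95% interval −0.27 to 0.04). H19 had a log2 fold change of 0.0011 (−0.13 to 0.14), and the ratio of H19 to Igf2 was 1.45 to 1.56 in controls and 1.54 to 1.68 in mutants. Meg3 had 6258, 5276 and 5288 in the controls and 6730, 6514 and 5316 in the mutants, with a log2 fold change of 0.14 (−0.09 to 0.37). Dlk1 (−0.07, interval −0.24 to 0.10), Cdkn1c (−0.07, −0.21 to 0.07), Mest (−0.07, −0.19 to 0.06) and Grb10 (−0.03, −0.15 to 0.10) lay closer to 0. No member passed limma's threshold, where 0% of all 14293 tested genes did, and 0 members passed by edgeR or DESeq2. At an unadjusted p under 0.05, 0 members were higher and 0 lower, against 1.08% and 2.81% of all genes, and 4.42% and 4.36% of all genes were higher or lower without overlap. The median log2 fold change was −0.07 over the members and 0.0013 over all genes.

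**Figure D4:**
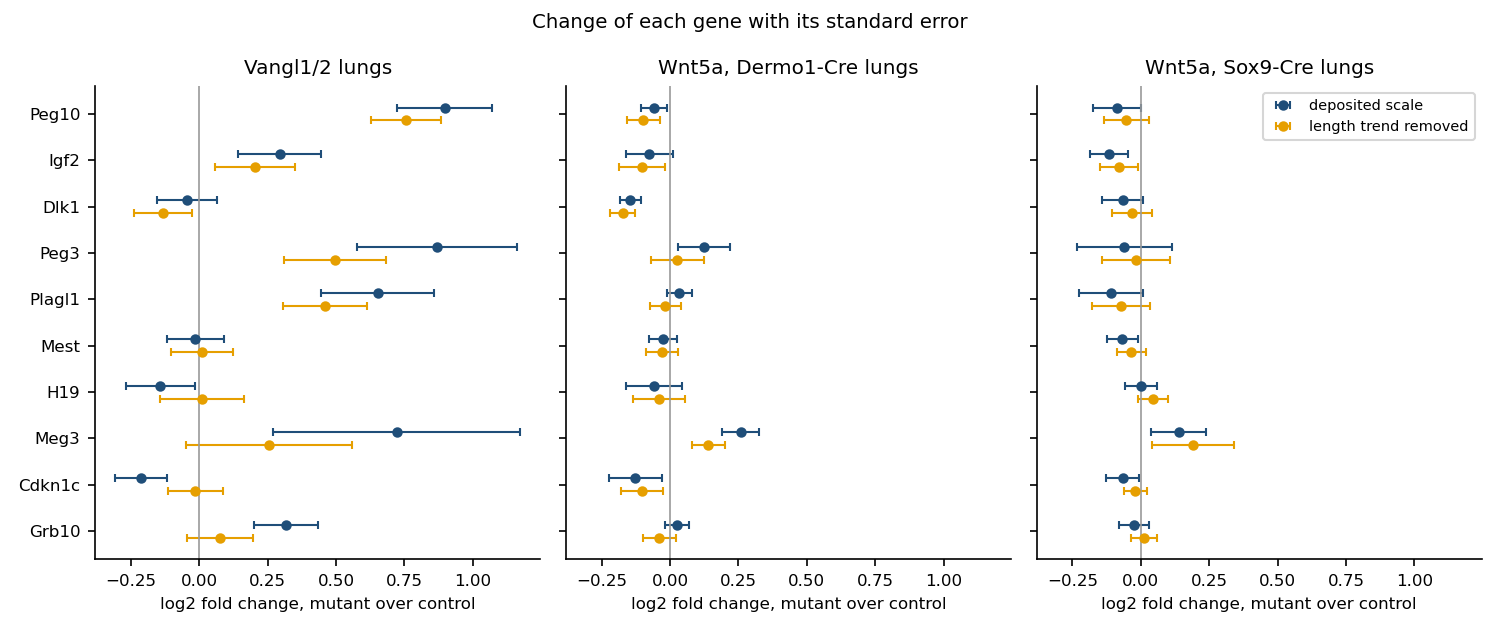
Log2 fold change, mutant over control (x axis), of each member (y axis) in the 3 experiments, with the standard error as bars. Blue points use the deposited scale and orange points the values with the length trend of each library removed. In the Vangl1/2 lungs Peg10 moved from 0.90 to 0.76 and Meg3 from 0.72 to 0.26, and on the deposited scale of the Wnt5a experiments Meg3 in the Dermo1-Cre lungs (0.26) lay farthest from 0.

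The other imprinted genes formed a list of 48, of which 41 were above the filter in the Vangl1/2 table, and their median log2 fold change was 0.0044 there, or −0.02 with the length trend removed. By limma 0 of the 41 passed the threshold, where 0.00699% of all genes did. At an unadjusted p under 0.05, 6 were higher and 3 lower, against 12% and 8.56% of all genes, and edgeR and DESeq2 called 0. In the Dermo1-Cre lungs 0 of 41 passed by any of the 3 tools, and at an unadjusted p under 0.05 there was 1 higher gene and no lower one, against 5.42% and 4.76% of all genes. The median was 0.04. Besides Rian, Atp10a, a phospholipid transporter, had a log2 fold change of 0.21 (SE 0.10) and Zim1, a zinc finger gene beside Peg3, 0.30 (SE 0.14), with an adjusted p of 0.506 for each by limma. In the Sox9-Cre lungs 0 of 42 passed by any of the 3 tools, and at an unadjusted p under 0.05 only Slc22a3 was lower and no gene higher, against 2.81% and 1.08% of all genes. The lowest p-values belonged to Slc22a3, an organic cation transporter with 34.7, 14.9 and 17.0 normalized counts in controls and 10.7, 11.1 and 11.3 in mutants, to Nap1l4, a nucleosome assembly protein (log2 fold change 0.09, SE 0.04), and to Zim1 (−0.31, SE 0.17), each with an adjusted p of 0.9999 by limma.

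The receptors and binding proteins of the IGF axis surround Igf2. Igf2r, which clears IGF2 and is itself expressed from the maternal copy, had 6724, 11776 and 5061 normalized counts in the Vangl1/2 controls and 11568, 12483 and 12230 in the mutants. Igf1r, the signaling receptor, had 1573, 2750 and 1264 in the controls and 2874, 3140 and 3351 in the mutants. Control replicates 1 and 3 were again the low libraries. With the length trend removed the log2 fold changes fell from 0.71 to 0.46 for Igf2r and from 0.82 to 0.38 for Igf1r. Against control replicate 2 alone they were 0.04 for Igf2r and 0.18 for Igf1r. In both Wnt5a experiments the groups overlapped for Igf2r and Igf1r, with log2 fold changes from −0.03 to 0.09. Of the 17 genes of this list 15 were above the filter in each experiment, and 0 passed limma's threshold in any, nor by edgeR or DESeq2. At an unadjusted p under 0.05, 6 were higher and 0 lower in the Vangl1/2 lungs, where 12% and 8.56% of all genes were. In the Dermo1-Cre lungs 0 were higher and 0 lower (5.42% and 4.76% of all genes), and in the Sox9-Cre lungs 0 were higher and 2 lower (1.08% and 2.81%). Long genes were more often higher without overlap in the Vangl1/2 lungs, as given above, and the median of the list there was 0.14, or 0.15 with the length trend removed.

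The 2 genes of the Sox9-Cre lungs were Igf1 and Igfbp3. Igf1, the ligand that shares its receptor with Igf2, had 4256, 2801 and 3203 normalized counts in the controls and 2264, 2456 and 2533 in the mutants. Igfbp3, a secreted binding protein, had 1054, 776 and 958 in the controls and 722, 646 and 528 in the mutants. Each mutant was below each control for both genes, with log2 fold changes of −0.48 (SE 0.13, adjusted p = 0.9999 by limma and 0.0807 by DESeq2) and −0.56 (SE 0.14, adjusted p = 0.9999 by limma and 0.0807 by DESeq2). Igfbp5 followed with −0.15 (SE 0.07, adjusted p = 0.9999 by limma). Of the 12 marker lists only the endothelial sum did not overlap between these groups, with 13630 to 13814 in controls and 13046 to 13507 in mutants. The summed mesothelial list was 2833 to 3474 in controls and 2177 to 2841 in mutants, and the cardiomyocyte list 5541 to 19106 and 1093 to 6056. Their part in the values of Igf1 and Igfbp3 was not tested. In the Dermo1-Cre lungs the IGF genes with the smallest p were Igfbp2 (−0.11, SE 0.05), Insr, the insulin receptor (0.10, SE 0.05), and Igfbp3 (0.27, SE 0.13), with adjusted p-values from 0.512 to 0.523 by limma.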

How the data were processed

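Bulk RNA-Seq of whole mouse embryonic lungs gave 18 libraries in 6 groups of 3. Per the labels the submitters' processing used Trim Galore, HISAT2, featureCounts, DESeq2 and the build mm10, with versions and annotation not given in the sources used here. The authors deposited, for each experiment, a signal per library, that is gene counts divided by a size factor. Their own fold changes and p-values were not used, and 0 columns of libraries were left unassigned.

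Dividing by the step of each library gave whole reads for 100% of values (tolerance 0.001). The values plus a pseudocount of 1 were put on the log2 scale. Genes reaching 10 normalized counts in 3 or more of the 6 libraries were tested with limma 3.58.1 (R 4.3.3, mean-variance trend) and adjusted by the Benjamini-Hochberg method at 0.05. For 1 gene, 3 libraries against 3 allow no exact permutation p under 0.1. edgeR 4.0.16 and DESeq2 1.42.0 on the recovered reads, other scalings, filters and pseudocounts, a loess removal of the trend on exon length (GENCODE M21), and fits without each library were alternatives. The steps were tested on simulated data. All 10 members passed the filter in every experiment. The members and gene lists were chosen with earlier results of these data known. Genes named are the members, Sgce, Igf2r, Igf1r, Rtl1, the targeted genes, and in each Wnt5a experiment the 3 other imprinted and the 3 IGF genes with the smallest p. Where a count of 5 or fewer is given its genes may be named as well. Nkx2-1, Tbx4, Copg2, Gm49394 and Serpina1a were named outside this rule, as were genes marked so where they appear. Promoter windows came from RefSeq (GRCm38.p6), where 7 of the 10 members matched. Python 3.11.15 was used for the tables and matplotlib 3.10.9 for the figures.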

Additional observations from a re-analysis of the deposited data

How the results depend on the processing

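The fold changes of the members were computed under 15 alternatives in each experiment, and under 1 added after the data were seen, which left out control replicates 1 and 3 of the Vangl1/2 experiment. In that alternative Peg10 had a log2 fold change of 0.47 in place of 0.90, and its leave-one-out values ranged from 0.76 to 1.11. Between 6 and 7 members were above 0 in the Vangl1/2 lungs with 1 library left out, 8 with the length trend removed and 5 with control replicate 2 as the only control. The count of Vangl1/2 genes past the threshold was 1, and it was 20 by DESeq2, 0 with the replicate block, 0 by limma without its trend, and from 0 to 6183 with 1 library left out, the highest without control replicate 2. The Dermo1-Cre count of 2 became 100 by DESeq2, 16 with the replicate block, 0 by limma without its trend, 1 with the length trend removed and 0 to 54 with 1 library left out, the highest without mutant replicate 1. The Sox9-Cre count of 0 became 9 by DESeq2 and 0 to 13 with 1 library left out, the highest without mutant replicate 1. The count of Dermo1-Cre members past the threshold was 0 and became 1 (Meg3) by DESeq2. The causes of these differences were not tested.

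Some directions near 0 turned. With the length trend removed Plagl1 (−0.0176) and Grb10 (−0.0397) in the Dermo1-Cre lungs and Grb10 (0.0105) in the Sox9-Cre lungs changed sign. With 1 library left out, the Dermo1-Cre values ranged from −0.154 to 0.0435 for H19 (above 0 without control or mutant replicate 3) and from −0.0623 to 0.0182 for Mest (above 0 without control replicate 3). The Sox9-Cre values ranged from −0.1523 to 0.0218 for Peg10, −0.1933 to 0.0492 for Plagl1, −0.0621 to 0.0070 for Grb10 and −0.2474 to 0.1561 for Peg3, each highest without mutant replicate 1, and from −0.0194 to 0.0299 for H19.

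The replicate numbers share no stated origin. Same-numbered libraries correlated in their deviations by 0.30, 0.05 and 0.01 in the Vangl1/2 experiment. The correlations were 0.07, −0.07 and −0.22 in the Dermo1-Cre and 0.05, 0.13 and −0.12 in the Sox9-Cre experiment. The deviations were taken from means of 3 libraries, so these correlations cannot decide whether same-numbered libraries share an origin. The replicate block changed no call of a member.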

Other observations

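Genes that set or keep imprints were expressed in the embryonic lung. Of 13 such genes and Plag factors, all 13 were above the filter in each experiment. Zfp57, which keeps methylated imprints, had between 1105 and 1615 normalized counts in the 18 libraries, and its partner Trim28 between 12194 and 19301. By limma, edgeR and DESeq2 0 of the 13 passed the threshold in any experiment. At an unadjusted p under 0.05 by limma, 7 were higher and 0 lower in the Vangl1/2 lungs, 3 higher and 0 lower in the Dermo1-Cre lungs, and 0 in the Sox9-Cre lungs. Over all genes 12% were higher in the Vangl1/2 and 5.42% in the Dermo1-Cre lungs, and in the Vangl1/2 lungs the share of genes higher without overlap rose with exon length. In that order of experiments the list had medians of 0.26, 0.04 and 0.03 on the log2 scale, and in the Vangl1/2 lungs it was 0.08 with the length trend removed. Zfp57 and Trim28 were chosen for their roles and not by the rule for named genes.

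Of 10 inhibitors of the Cip/Kip family, G1 cyclins and their kinases, which act beside Cdkn1c, 0 passed the threshold by limma, edgeR or DESeq2 in any experiment. At an unadjusted p under 0.05 by limma, 2 were higher in the Vangl1/2 lungs, where 12% of all genes were, and 0 in the other experiments, with medians of 0.11, 0.02 and 0.03.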
